A study of Saccharomyces cerevisiae with 12 samples.

Results

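Pol I occupancy was examined over the 3′ portion of the 25S ribosomal RNA gene, defined by place as positions 4950 to 6617 of the 35S gene. This is the second part of 25S without its last 30 nt, and it was chosen with earlier results of these data known. These 1668 positions make up 24.3% of the 6858 positions of the 35S gene. On assembly R64 they lie on the minus strand of chromosome XII from 460953 to 462620, inside RDN25-2 (460923 to 464318) and RDN37-2 (460712 to 467569), and they cover nucleotides 1699 to 3366 of 25S. YLR154C-G is annotated on the same strand from 462522 to 462671, so the first stretch of the region carries both names.

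*Saccharomyces cerevisiae* cultures at an OD600 of 0.3 received BMH-21 for 2 min, vehicle phosphate buffer for 2 min, BMH-21 for 16 min or vehicle for 16 min, with 3 libraries in each of the 4 groups and 12 in all, which the study describes as biological triplicates. The strain is the same in every group: its RPA135 subunit carries an HA and a histidine tag, the chromosomal RPA190 gene is deleted and covered by a plasmid copy, and ADE2, URA3, TRP1, LEU2, HIS3 and CAN1 carry marker alleles. In native elongating transcript sequencing (NET-seq), tagged Pol I is pulled down with its RNA, a linker is ligated to the RNA 3′ ends, and each read end is taken to mark the last nucleotide added. Values are in RPM, the read ends at a position relative to all those of its library on the 35S gene, so that they give shares of a total and not an amount per cell.

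Pol I transcribes the 35S gene into a single precursor, from which the 18S, 5.8S and 25S rRNAs are cut. The 3′ portion of 25S encodes the peptidyl transferase center and the sarcin-ricin loop of the large ribosomal subunit. BMH-21 is a small molecule that intercalates into GC-rich DNA and inhibits Pol I. Mature 25S rRNA is abundant and is carried along in the pull-down, and its read ends cannot be told apart here from those of nascent RNA.

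Libraries held 404163 to 3700869 reads in the region, and no position was without reads in any library. Spearman's coefficient across the 1668 positions lay between 0.949 and 0.984 for pairs of BMH-21-treated libraries and between 0.978 and 0.992 for pairs of vehicle-treated libraries at 2 min. At 16 min these coefficients lay between 0.944 and 0.967 for BMH-21 and between 0.897 and 0.955 for vehicle. A BMH-21-treated and a vehicle-treated library gave 0.927 to 0.975 at 2 min and 0.893 to 0.965 at 16 min, so the order of the positions was largely shared. Positions are not independent replicates, and no p-value is attached.

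The sequences that the results turn on are shown as RNA, 5′ to 3′, from the deposited tables, whose 6858 bases all equal the R64 reference. Each position is shown from 19 nt before the last nucleotide added to 20 nt after it. The first set holds the 5 positions highest at 2 min, with the last nucleotide added in capitals.
5046 (XII 462504 to 462543): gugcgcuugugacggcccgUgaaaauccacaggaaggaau
5338 (XII 462212 to 462251): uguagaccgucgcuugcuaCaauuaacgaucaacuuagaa
6318 (XII 461232 to 461271): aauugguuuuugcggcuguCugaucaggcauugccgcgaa
5010 (XII 462540 to 462579): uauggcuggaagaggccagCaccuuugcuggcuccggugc
5315 (XII 462235 to 462274): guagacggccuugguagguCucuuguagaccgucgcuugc

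The second set holds positions that fell after BMH-21 treatment at both times or were among the most lowered at 1 of them, marked in the same way. The first 3 fell at both times on the deposited scale, and 5891 fell at both times on the region scale only (scales explained with the results).
5575 (XII 461975 to 462014): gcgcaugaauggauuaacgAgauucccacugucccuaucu
5539 (XII 462011 to 462050): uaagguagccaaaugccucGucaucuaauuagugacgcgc
5398 (XII 462152 to 462191): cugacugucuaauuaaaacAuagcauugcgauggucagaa
5891 (XII 461659 to 461698): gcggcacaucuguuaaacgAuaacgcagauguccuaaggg
6280 (XII 461270 to 461309): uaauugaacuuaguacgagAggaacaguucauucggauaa

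The third set holds the longest runs of neighbouring positions called in 1 direction at 2 min (lower on the region scale, higher on the deposited scale, both explained with the results), with the run in capitals and 20 nt on either side. The first lies in the sarcin-ricin loop.
6279 to 6287, lower (XII 461263 to 461311): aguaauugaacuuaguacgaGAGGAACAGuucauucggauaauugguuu
4981 to 4988, lower (XII 462562 to 462609): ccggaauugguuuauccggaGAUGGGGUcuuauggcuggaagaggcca
5462 to 5469, higher (XII 462081 to 462128): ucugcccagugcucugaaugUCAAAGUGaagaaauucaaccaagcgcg
6024 to 6031, higher (XII 461519 to 461566): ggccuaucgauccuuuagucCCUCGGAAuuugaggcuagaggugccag

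The fourth set holds the 4 positions of the region after which the letters CUCC start 11 nt downstream, with these letters in capitals. The ligated linker has 2 fixed bases and an 8-base molecular identifier before its constant part, ctccacgagtcatccgc, so CUCC stands where that part would start. In this kind of protocol the primer for reverse transcription matches the constant part of the linker, and a read that began on such letters in the RNA itself would end here without marking the last nucleotide added by Pol I. The match to the constant part runs over 6 bases after 6399, 5 after 5094 and 5922, and 4 after 5011. Of the 6858 positions of the 35S gene, 10 (0.146%) hold the match, read on the transcribed strand only.
6399 (XII 461151 to 461190): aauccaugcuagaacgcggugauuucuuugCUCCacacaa
5094 (XII 462456 to 462495): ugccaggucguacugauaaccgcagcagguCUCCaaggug
5922 (XII 461628 to 461667): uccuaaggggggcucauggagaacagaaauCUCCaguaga
5011 (XII 462539 to 462578): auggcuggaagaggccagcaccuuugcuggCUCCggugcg

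Position 6399, nucleotide 3148 of 25S (XII 461171), held far more read ends than any other position of the region at 16 min. It had 55541, 71857 and 54669 RPM in the BMH-21-treated libraries at 16 min, against 25017, 53828 and 32475 RPM in the vehicle-treated libraries. All BMH-21-treated libraries lay above all vehicle-treated ones, but narrowly, and limma's test across the 35S gene did not call the difference (log2 fold change 0.77, SE 0.31, adjusted p = 0.211). Without vehicle replicate 2 the change was 1.08 with a limma adjusted p of 0.0347, and the adjusted p-values over all alternatives lay between 0.0347 and 0.47. At 2 min the same position had 4604, 515 and 612 RPM in the BMH-21-treated libraries, against 341, 2019 and 7925 RPM in the vehicle-treated libraries. These groups overlapped across their whole range (log2 fold change -0.64, SE 1.26, limma adjusted p = 0.728).

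The share of the region's signal at position 6399 was 15.4% ± 2.13 in the BMH-21-treated and 10.2% ± 3.85 in the vehicle-treated libraries at 16 min (SD, n = 3 each). It was 0.489% ± 0.592 and 0.976% ± 1.122 in the BMH-21-treated and vehicle-treated libraries at 2 min (SD, n = 3 each). The 2 times come from tables that were scaled separately, and the rise between them, present in both treatments, was not tested. At 16 min the 10 positions within 5 nt of 6399 had between 111 and 1873 RPM over the 6 libraries, far below 6399 itself. The highest of them was 6397, 2 nt upstream. It had 1297, 1873 and 1215 RPM in the BMH-21-treated libraries, against 645, 1172 and 839 RPM in the vehicle-treated libraries at 16 min. At 2 min it had 78.5 to 222 RPM over the 6 libraries. The 5 positions downstream had at most 462 RPM at 16 min.

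Of the other positions followed by CUCC, 5094 was second in rank in the region at 16 min in both treatments. It had 7773, 5254 and 5062 RPM in the BMH-21-treated libraries, against 2907, 7494 and 3316 RPM in the vehicle-treated libraries at 16 min, and the groups overlapped (log2 fold change 0.51, SE 0.40, limma adjusted p = 0.549). At 2 min it ranked 714 after BMH-21 and 681 after vehicle, with 106 to 355 RPM over the 6 libraries. The positions 5922 and 5011 followed no such course: 5922 ranked 16 in both treatments at 2 min, and 58 after BMH-21 and 70 after vehicle at 16 min, and 5011 ranked 48 after BMH-21 and 39 after vehicle at 2 min, and 252 after BMH-21 and 185 after vehicle at 16 min. Position 6383, 16 nt upstream of 6399 and not followed by CUCC, was the third highest after BMH-21 at 16 min. It had 2209, 4548 and 10390 RPM in the BMH-21-treated libraries, against 1030, 1939 and 7001 RPM in the vehicle-treated libraries (log2 fold change 0.97, SE 0.83, limma adjusted p = 0.588). Replicate 3 was the highest at this position in both treatments. Whether the read ends at 6399 and 5094 are 3′ ends of Pol I transcripts or come from the match to the linker was not tested.

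**Figure D1:**
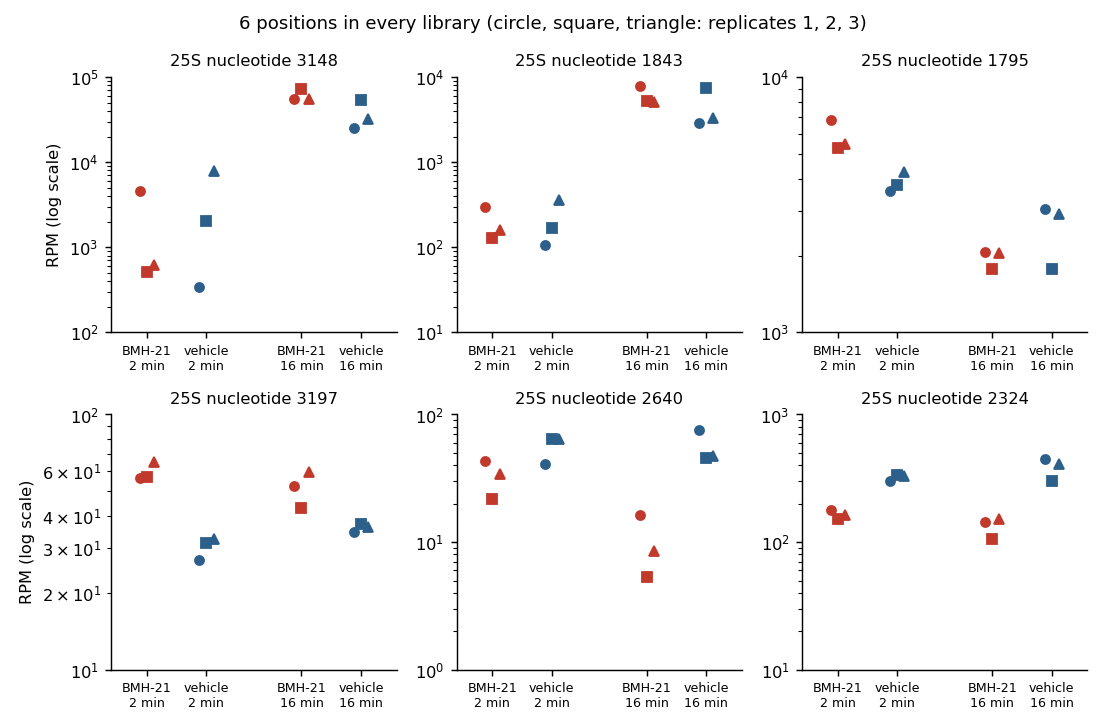
RPM (log scale) at 6 positions in every library, BMH-21 in red and vehicle in blue, with circles, squares and triangles for replicates 1, 2 and 3. Nucleotides 3148 and 1843 of 25S (positions 6399 and 5094) are high at 16 min in both treatments, nucleotides 1795 and 3197 (5046 and 6448) are higher after BMH-21 at 2 min, and nucleotides 2640 and 2324 (5891 and 5575) are lower after BMH-21 at 16 min.

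The region as a whole took a larger share of the 35S signal after BMH-21 treatment. It held 38.5% ± 0.65 in the BMH-21-treated and 34.9% ± 0.62 in the vehicle-treated libraries at 2 min, and 39.3% ± 0.95 in the BMH-21-treated and 36.0% ± 0.93 in the vehicle-treated libraries at 16 min (SD, n = 3 each). Leaving position 6399 out of region and total gave 38.4% ± 0.52 after BMH-21 and 34.6% ± 0.52 after vehicle at 2 min. At 16 min this gave 35.4% ± 0.58 after BMH-21 and 33.5% ± 0.13 after vehicle, a log2 difference of 0.08, against 0.13 with the position kept. All BMH-21-treated libraries lay above all vehicle-treated ones at both times, with and without the position. No test was run on these shares, which, as parts of a total, also move when other parts of the 35S gene lose signal.

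**Figure D2:**
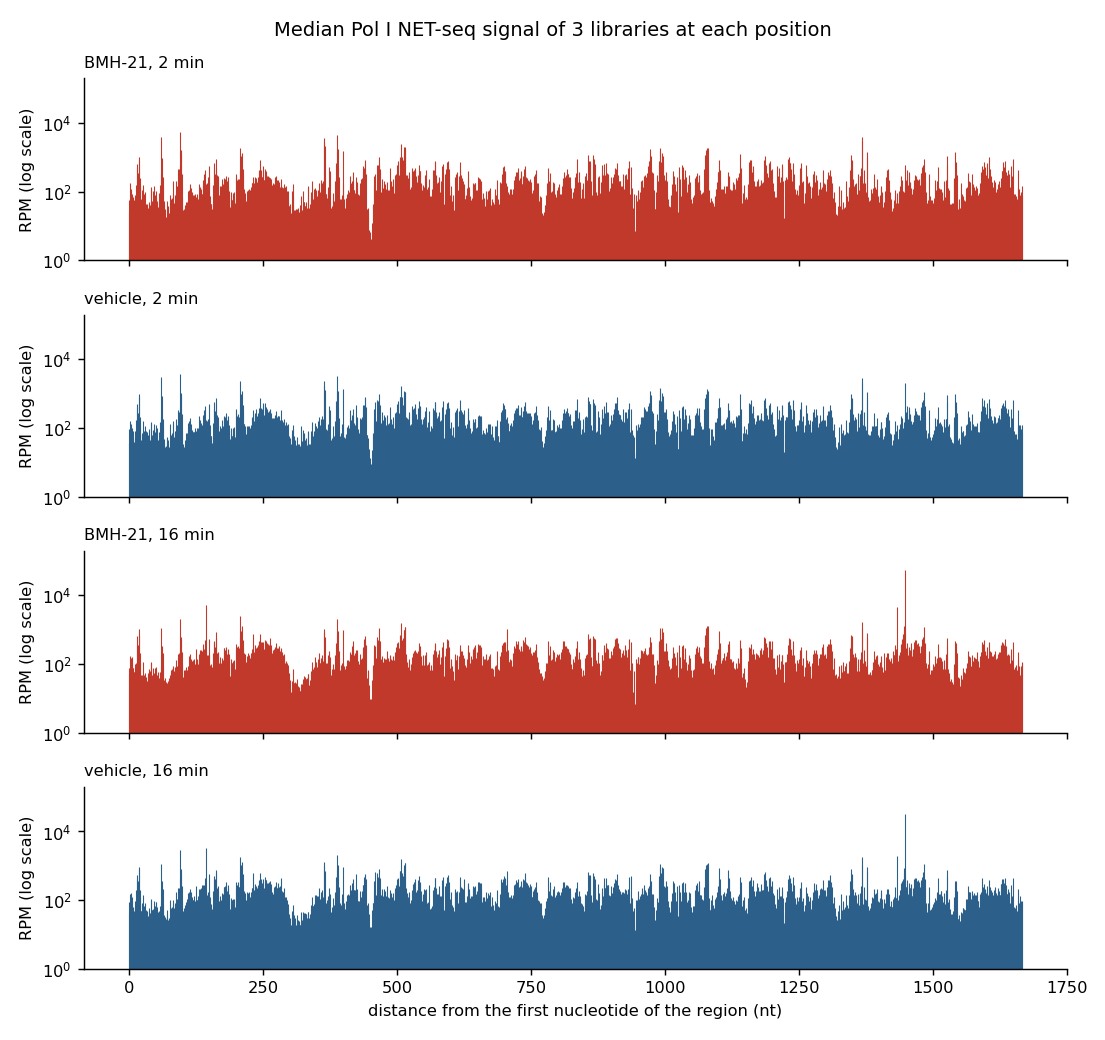
Median RPM of the 3 libraries of a group (log scale) at each of the 1668 positions, against the distance in nt from the first nucleotide of the region, for BMH-21 (red) and vehicle (blue) at 2 min and 16 min. The pattern of peaks and gaps recurs in all 4 groups, and the tallest line at 16 min is position 6399, with medians of 55541 RPM after BMH-21 and 32475 RPM after vehicle.

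Peaks were taken as positions whose group median was the highest within 5 nt and at least 10 times the median position. At 2 min there were 14 peaks after BMH-21 and 11 after vehicle, and the 10 shared ones were 71.4% of the BMH-21 list and 90.9% of the vehicle list. Of the 14 peaks after BMH-21, 7 ended in C, 4 in A, 2 in G and 1 in U. At 16 min both treatments had the same 8 peaks, of which 5 ended in C, 2 in U, 1 in A and 0 in G. Positions 5046, 5158, 5338, 5458 and 6318 were peaks in all 4 groups.

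Of the 5 highest positions of the 2-min libraries, 4 rose after BMH-21 treatment on the deposited scale, on which the region's larger share also adds to each change. Position 5046, the highest in the region at 2 min (nucleotide 1795 of 25S, XII 462524, also within YLR154C-G), had 6773, 5275 and 5477 RPM in the BMH-21-treated libraries, against 3571, 3766 and 4266 RPM in the vehicle-treated libraries. All its BMH-21 values exceeded all its vehicle values (log2 fold change 0.59, SE 0.15, limma adjusted p = 0.0324). With each library scaled to its sum over the region, 5046 was not called (0.44, limma adjusted p = 0.0602). On that scale 5338 (0.42, limma adjusted p = 0.0397), 6318 (0.41, limma adjusted p = 0.0441) and 5315 (0.52, limma adjusted p = 0.0303) were called, with adjusted p-values of up to 0.186 over the alternatives. Position 5338 had 4878, 4376 and 4446 RPM after BMH-21, against 3153, 2858 and 3228 RPM after vehicle (0.57, SE 0.13, limma adjusted p = 0.0213). Position 6318 had 4229, 3983 and 4010 RPM after BMH-21, against 3004, 2508 and 2796 RPM after vehicle (0.56, SE 0.13, limma adjusted p = 0.0234). The groups were apart at each of these 3 positions. Position 5315 had 4296, 3514 and 3692 RPM after BMH-21, against 2399, 2166 and 2652 RPM after vehicle (0.67, SE 0.15, limma adjusted p = 0.02). These 4 calls were lost with the replicate block (limma adjusted p = 0.0984 for 5046, 0.0732 for 5338, 0.0747 for 6318 and 0.0647 for 5315) and without BMH-21 replicate 3 or any of the vehicle replicates, and the adjusted p-values over all alternatives lay between 0.00883 and 0.128. Position 5010 had 4523, 3542 and 3865 RPM after BMH-21, against 3021, 2400 and 2939 RPM after vehicle, and missed the threshold (0.51, SE 0.16, limma adjusted p = 0.0537). Position 5158 had 3735, 1888 and 1760 RPM after BMH-21, against 2018, 2251 and 2628 RPM after vehicle at 2 min, so that its groups overlapped (0.02, SE 0.30, limma adjusted p = 0.967).

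None of these 6 positions was called at 16 min. Position 5046 had 2056, 1767 and 2043 RPM after BMH-21, against 3042, 1779 and 2916 RPM after vehicle, with a log2 fold change of -0.36 (SE 0.25, limma adjusted p = 0.49). The log2 fold changes of 5338, 6318, 5315 and 5010 at 16 min lay between -0.17 and -0.02, and that of 5158 was 0.39 (SE 0.21, limma adjusted p = 0.37).

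Every position of the region was tested with limma on log2(RPM + 1) in a fit over all positions of the 35S gene with a mean of at least 1 RPM, with Benjamini-Hochberg adjustment over all of them. At 2 min 106 of the 1668 positions fell and 121 rose at an adjusted p under 0.05. Over the 35S gene the same rule called 23.4% of 6746 tested positions lower and 3.56% higher, so the region held fewer lower and more higher calls (6.35% and 7.25%) than the gene. The median log2 fold change of the region was -0.06, against -0.26 over the gene and -0.21 over the interior of the 5′ portion of 25S. The split depended on the scaling: with libraries scaled by their median ratio 21 positions fell and 235 rose. With edgeR on the recovered reads, scaled by edgeR's own normalization factors, 46 fell and 267 rose. The median ratio moved the median of the 35S gene to -0.02, and edgeR moved it to -0.10.

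These counts also rested on single libraries. With either vehicle replicate 2 or vehicle replicate 3 left out, limma called 0 positions of the region in both directions, while 117 were lower and 124 higher without replicate 2, and 167 lower and 159 higher without replicate 3, at an unadjusted p under 0.05. Without adjustment this threshold also passes positions that do not change. The matching share over the gene was not counted, so these unadjusted counts do not show how many positions changed. Without BMH-21 replicate 3 it called 29 lower and 8 higher, and without vehicle replicate 1 it called 25 lower and 10 higher. All 18 of the 2-min calls among the named positions exceeded an adjusted p of 0.05 when vehicle replicate 2 or 3 was left out.

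To set aside the share of the region itself, each library was also rescaled to its sum over the region without position 6399. On this scale 245 positions of the region fell and 55 rose at 2 min. Over the 35S gene, 34.3% of 6747 positions were called lower and 1.53% higher. The median log2 fold change of the region was then -0.21, and 1205 of the 1668 positions had a negative one. This scale fixes the region's sum, so a larger share at the highest positions leaves a smaller one for the rest. On it the median log2 fold change was 0.20 in the decile of positions with the highest mean and -0.44 in that with the lowest. The counts on this scale therefore describe how the signal is divided within the region and not an amount lost. Without 1 library, the counts lay between 51 lower (without vehicle replicate 2) and 372 lower (without BMH-21 replicate 2), with 101 lower without BMH-21 replicate 3, 102 without vehicle replicate 1 and 90 without vehicle replicate 3. The higher calls lay between 2, without vehicle replicate 2, and 75, without BMH-21 replicate 2.

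At 2 min the change followed the level of the signal. In the decile of positions with the lowest mean over the 6 libraries (5.83 to 41.4 RPM), the median log2 fold change was -0.29, with 32 positions lower and 0 higher. In the decile with the highest mean (441 to 4855 RPM) it was 0.35, with 3 positions lower and 51 higher. Over the 10 deciles the median increased at each step. At 16 min the medians of the deciles lay between -0.13 and 0.09, with no such order, and on the log2(RPM + 1) scale changes at low positions are understated.

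The signal of the 2-min libraries was also more concentrated after BMH-21. The 42 highest positions (2.5%), without 6399, held 23.3%, 19.997% and 20.7% of the region's signal in the BMH-21-treated libraries, against 16.0%, 16.1% and 17.9% in the vehicle-treated libraries. The 10 highest positions held 9.19% ± 0.95 after BMH-21 and 6.97% ± 0.46 after vehicle (SD, n = 3 each). The groups were apart in both measures. At 16 min the 42 highest positions held 16.8% ± 0.17 after BMH-21 and 16.0% ± 0.94 after vehicle (SD, n = 3 each), and the groups overlapped.

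**Figure D3:**
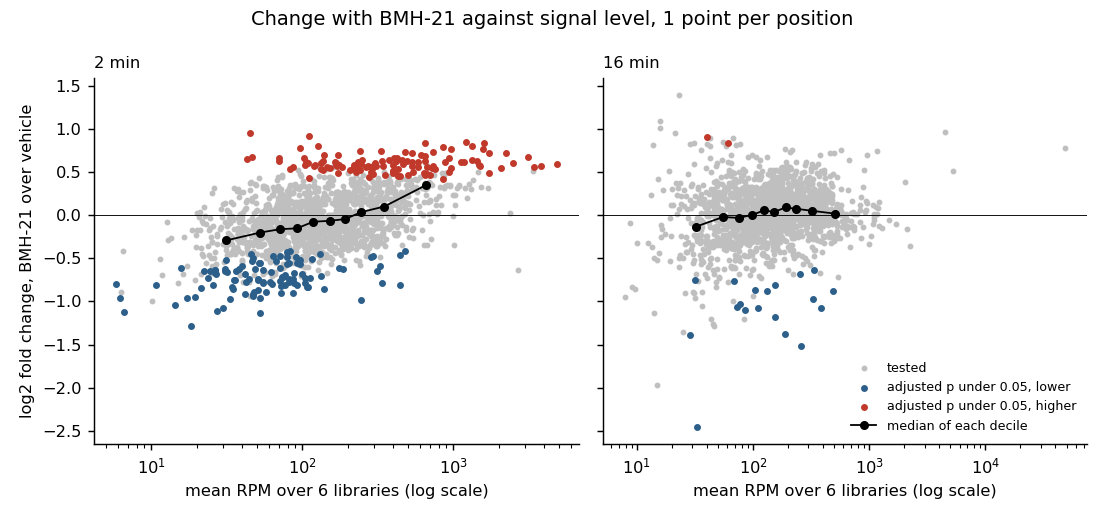
Log2 fold change of BMH-21 over vehicle against the mean RPM of the 6 libraries (log scale), 1 point per position, at 2 min and 16 min, with called positions in color and black points for the median of each decile. At 2 min the medians climb over the deciles to 0.35 in the highest, and at 16 min they stay between -0.13 and 0.09.

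Part of the positions called in 1 direction at 2 min lay next to each other. Of the 245 lower positions on the region scale 147 had a called neighbour in the same direction, and of the 55 higher ones 29 did, with longest runs of 9 and 5 positions. On the deposited scale 45 of the 106 lower and 78 of the 121 higher positions did, with longest runs of 5 and 8 positions. At 16 min, with far fewer calls, 0 called positions had a called neighbour in the same direction on either scale. Called neighbours were not counted over the whole gene, so whether the neighbours at 2 min are particular to the region was not tested. Neighbouring positions are not independent of each other. The longest lower run, on the region scale, had 9 positions, 6279 to 6287 (nucleotides 3028 to 3036), in the sarcin-ricin loop, the conserved loop that ribosome-inactivating toxins act on. Its summed signal at 2 min was 323, 305 and 311 RPM after BMH-21, against 558, 521 and 495 RPM after vehicle. At 16 min it was 540, 655 and 667 RPM after BMH-21, against 417, 584 and 562 RPM after vehicle, and the groups overlapped. The run 4981 to 4988, which holds a stretch of G residues, had 296, 285 and 283 RPM after BMH-21, against 498, 477 and 441 RPM after vehicle at 2 min. At 16 min it had 343, 325 and 390 RPM after BMH-21, against 330, 340 and 328 RPM after vehicle, and the groups overlapped (log2 difference 0.08).

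The longest higher runs, on the deposited scale, had 8 positions each. The run 5462 to 5469 had 9933, 8387 and 8948 RPM after BMH-21, against 4681, 5372 and 6113 RPM after vehicle at 2 min. The run 6024 to 6031 had 9345, 8445 and 8882 RPM after BMH-21, against 5381, 5824 and 6458 RPM after vehicle at 2 min. At 16 min both runs overlapped between treatments, with log2 differences of 0.05 and 0.04. These 4 runs were chosen from the calls, and their sums are given as a description.

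The positions raised most at 2 min were 6448, 5285, 5463, 5462 and 5465. Position 6448, a low position, had 56.3, 56.7 and 64.8 RPM after BMH-21, against 26.8, 31.5 and 32.4 RPM after vehicle (log2 fold change 0.95, SE 0.14, limma adjusted p = 0.0102). At 16 min it had 52.3, 43.0 and 59.8 RPM after BMH-21, against 34.6, 37.2 and 36.1 RPM after vehicle (0.50, limma adjusted p = 0.167). Position 5285 had 151, 127 and 159 RPM after BMH-21, against 70.0, 78.3 and 81.4 RPM after vehicle at 2 min (0.92, SE 0.15, limma adjusted p = 0.0104). The other 3 belong to the run 5462 to 5469 and rose by 0.83 to 0.85 on the log2 scale. In all 5 the groups were apart at 2 min.

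The positions lowered most at 2 min were 5398, 6280, 5403, 5532 and 5327, all with low signal. Position 6280, inside the sarcin-ricin loop, had 38.6, 29.4 and 29.9 RPM after BMH-21, against 70.4, 76.4 and 70.3 RPM after vehicle (log2 fold change -1.14, SE 0.15, limma adjusted p = 0.00904). Position 5532 had 16.0, 15.1 and 19.6 RPM after BMH-21, against 37.7, 38.8 and 36.4 RPM after vehicle (-1.116, SE 0.14, limma adjusted p = 0.00874). The changes of 5327 and 5403 were -1.08 and -1.118. Position 5403 held only 2.33 to 6.83 RPM after BMH-21 and 8.24 to 9.67 RPM after vehicle, and edgeR did not call it (adjusted p = 0.0759; 0.0275 to 0.121 over all alternatives).

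At 16 min few positions passed. In the region 19 of 1668 fell and 2 rose, against 11.7% lower and 0.104% higher of the 6707 positions tested in the 35S gene. The median log2 fold change of the region was 0.02, against -0.06 over the gene. On the region scale 21 fell and 1 rose (12.2% and 0.0447% of 6706 in the gene). With edgeR 19 fell and 24 rose, with the median ratio 10 fell and 13 rose, and with the 35S sum without position 6399 18 fell and 7 rose. Without vehicle replicate 1, limma called 5 lower and 0 higher. Without BMH-21 replicate 1 it called 9 lower and 1 higher, without BMH-21 replicate 2 or vehicle replicate 3 it called 9 lower and 0 higher, and without BMH-21 replicate 3 it called 10 lower and 0 higher.

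The 5 positions lowered most at 16 min were 5891, 5575, 5539, 5510 and 5501. Position 5891 had 16.3, 5.31 and 8.54 RPM after BMH-21, against 75.9, 45.9 and 46.9 RPM after vehicle (log2 fold change -2.46, SE 0.40, limma adjusted p = 0.0105). Position 5575 had 145, 107 and 152 RPM after BMH-21, against 451, 299 and 411 RPM after vehicle (-1.51, SE 0.24, limma adjusted p = 0.00896). Position 5539 had 12.02, 19.2 and 15.2 RPM after BMH-21, against 41.6, 45.0 and 37.7 RPM after vehicle (-1.39, SE 0.21, limma adjusted p = 0.00826). At each of these 3 the treatments were apart. Position 5510 had 111, 79.5 and 122 RPM after BMH-21, against 272, 240 and 297 RPM after vehicle (-1.38, SE 0.22, limma adjusted p = 0.00916). Position 5501 had 102, 84.2 and 95.8 RPM after BMH-21, against 236, 213 and 197 RPM after vehicle (-1.18, SE 0.17, limma adjusted p = 0.00646). These 5 calls held in each alternative fit, with adjusted p-values of at most 0.0438 over the alternatives for 5891 and 0.035 for 5501.

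Some positions moved the same way at both times. On the deposited scale 8 positions fell at both, or 7.55% of the 106 at 2 min and 42.1% of the 19 at 16 min. On the region scale 15 did (6.12% of 245 and 71.4% of 21). Over the whole gene 23.4% of tested positions were lower at 2 min and 11.7% at 16 min on the deposited scale. On the region scale these shares were 34.3% and 12.2%. Positions lower at both times were not counted over the gene, so whether these overlaps are particular to the region was not tested. At 2 min 5575 had 178, 151 and 163 RPM after BMH-21, against 303, 338 and 331 RPM after vehicle (log2 fold change -0.98, SE 0.13, limma adjusted p = 0.00904). Position 5539 had 26.5, 16.6 and 23.9 RPM after BMH-21, against 36.9, 49.3 and 46.7 RPM after vehicle at 2 min (-0.97, SE 0.21, limma adjusted p = 0.0197). Position 5398 was low, with 7.85, 7.85 and 16.2 RPM after BMH-21, against 23.5, 29.2 and 25.04 RPM after vehicle at 2 min (-1.28, SE 0.28, limma adjusted p = 0.0197). At 16 min 5398 changed by -0.75 (SE 0.17, limma adjusted p = 0.0347), which edgeR did not call (adjusted p = 0.215; 0.0312 to 0.215 over all alternatives).

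Of the 2 positions that rose at 16 min, 4959 was called at both times. It had 43.1, 58.0 and 56.9 RPM after BMH-21, against 29.9, 23.0 and 30.0 RPM after vehicle at 16 min (log2 fold change 0.91, SE 0.20, limma adjusted p = 0.0356). At 2 min it had 58.2, 54.1 and 58.9 RPM after BMH-21, against 36.5, 37.5 and 32.4 RPM after vehicle (0.67, SE 0.13, limma adjusted p = 0.0143). Both calls were lost with the replicate block (limma adjusted p = 0.0802 at 16 min and 0.0624 at 2 min). The call at 16 min was also lost with a pseudocount of 0.1 and without any 1 library other than BMH-21 replicate 1, and the call at 2 min without BMH-21 replicate 3, vehicle replicate 2 or vehicle replicate 3. The adjusted p-values over all alternatives lay between 0.0241 and 0.121 at 16 min and between 0.00893 and 0.0673 at 2 min. The other, 6279 (nucleotide 3028, in the sarcin-ricin loop), went opposite ways. It had 26.8, 27.9 and 22.2 RPM after BMH-21, against 34.8, 35.4 and 40.7 RPM after vehicle at 2 min (-0.51, SE 0.15, limma adjusted p = 0.042). At 16 min it had 66.4, 74.0 and 93.9 RPM after BMH-21, against 38.6, 40.9 and 49.9 RPM after vehicle (0.83, SE 0.20, limma adjusted p = 0.0468).

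The region was divided into 12 equal windows of 139 nt, with position 6399 left out, which were tested among 48 windows of the 35S gene. At 2 min 7 of the 12 windows rose and 0 fell, against 25% higher and 25% lower of the 48 windows. The windows that rose were 1, 3, 4, 7, 8, 9 and 10, counted from the 5′ end. The largest change was in window 9 (positions 6062 to 6200), with 37837, 32716 and 35910 RPM after BMH-21, against 28452, 27968 and 29912 RPM after vehicle (log2 fold change 0.30, SE 0.07, limma adjusted p = 0.0195). Window 3 (5228 to 5366), which holds the peaks 5315 and 5338, had 33418, 30694 and 31804 RPM after BMH-21, against 26933, 24683 and 26585 RPM after vehicle (0.29, SE 0.05, limma adjusted p = 0.0175). The 7 windows changed by 0.16 to 0.30, and in each the groups were apart.

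Windows 6 and 11 had the lowest changes at 2 min, -0.11 and -0.08 (limma adjusted p = 0.5 and 0.545), and their BMH-21-treated libraries differed most: window 6 (5645 to 5783) had 20547, 28349 and 24989 RPM after BMH-21, against 27473, 27064 and 24512 RPM after vehicle. On the region scale 1 window of the region, window 3, was called (log2 fold change 0.14, limma adjusted p = 0.04). Without BMH-21 replicate 3 or any of the vehicle replicates, 0 windows of the region were called. At 16 min 0 of the 12 windows were called, against 14.6% lower and 0% higher of the 48. Window 2 (5089 to 5227), which holds 5094, had the lowest unadjusted p at that time, with 47278, 45788 and 43150 RPM after BMH-21, against 39276, 43530 and 38850 RPM after vehicle (0.16, SE 0.07, limma adjusted p = 0.236).

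**Figure D4:**
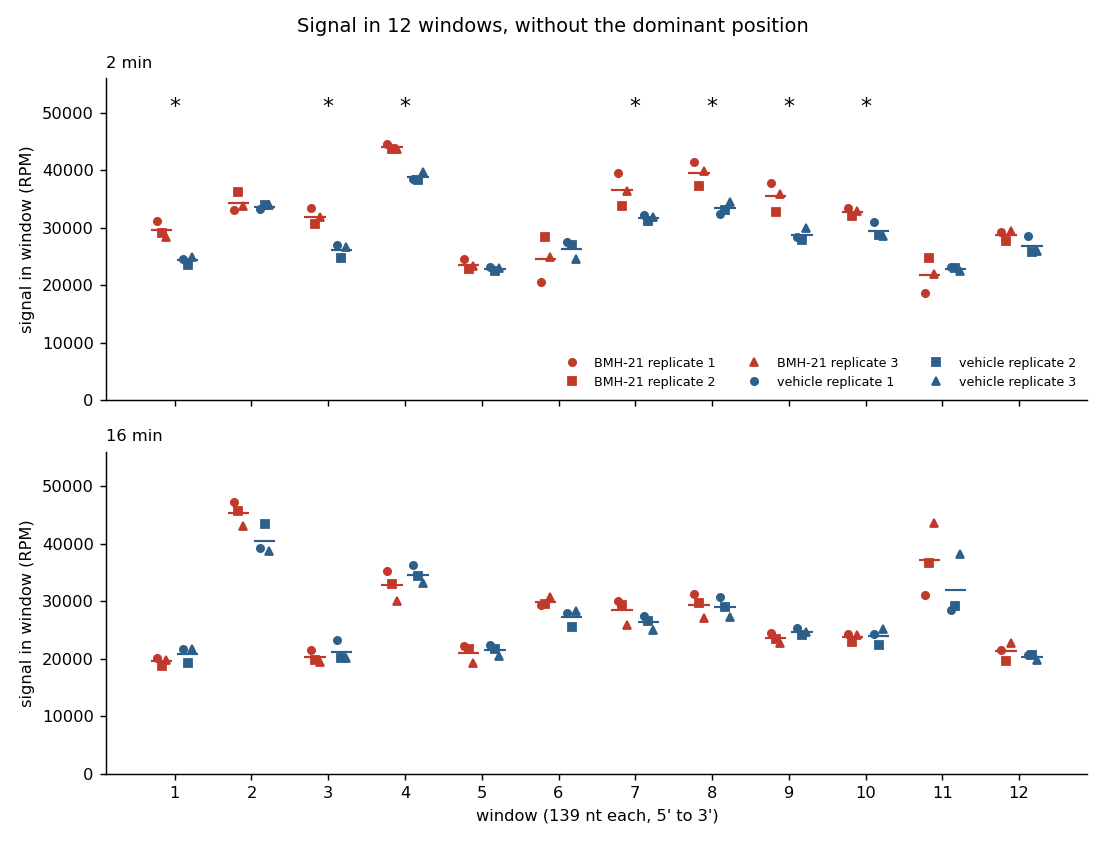
Summed signal in RPM of 12 windows of 139 nt from 5′ to 3′, without position 6399, in every library (points) with the mean of each group (line), BMH-21 in red left of vehicle in blue. Stars mark the 7 windows called at 2 min by limma at an adjusted p under 0.05; none is called at 16 min.

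Signal was next grouped by the last nucleotide added, and these shares carry no test. At 2 min, without position 6399, read ends after G made up 18.3%, 19.1% and 18.8% of the region's signal in the BMH-21-treated libraries, against 21.03%, 21.1% and 20.7% in the vehicle-treated libraries. Read ends after C made up 25.4%, 24.1% and 24.2% after BMH-21, against 22.5%, 22.1% and 23.1% after vehicle. U was higher after BMH-21 (26.5% ± 0.09) than after vehicle (25.6% ± 0.23), and A was lower after BMH-21 (30.1% ± 0.33) than after vehicle (30.9% ± 0.32; SD, n = 3 each). The groups were apart for all 4 bases at 2 min. With position 6399 kept, they overlapped for A (29.99% ± 0.49 after BMH-21 and 30.6% ± 0.46 after vehicle) and for U (26.9% ± 0.36 after BMH-21 and 26.3% ± 0.66 after vehicle; SD, n = 3 each). In the sequence of the region G is 27.7% of the positions and C is 20.3%, so in both treatments G held less and C more signal than its share of positions.

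At 16 min C was higher after BMH-21 (24.6% ± 0.07) than after vehicle (23.0% ± 0.78), and A was again lower after BMH-21 (29.6% ± 0.71) than after vehicle (31.3% ± 0.54; SD, n = 3 each), with the groups apart. The share of C includes positions 5094 and 6383, whose own groups overlapped. Their means were 6029 and 5715 RPM after BMH-21, against 4572 and 3323 RPM after vehicle. The share was not computed without them, so whether the difference in C goes beyond these positions was not tested. G did not separate at that time, with 21.8% ± 0.51 after BMH-21 and 21.6% ± 0.48 after vehicle. With position 6399, which ends in U, kept, U held 35.7% ± 1.32 after BMH-21 and 31.9% ± 2.38 after vehicle at 16 min, and the groups for C and G overlapped (SD, n = 3 each).

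**Figure D5:**
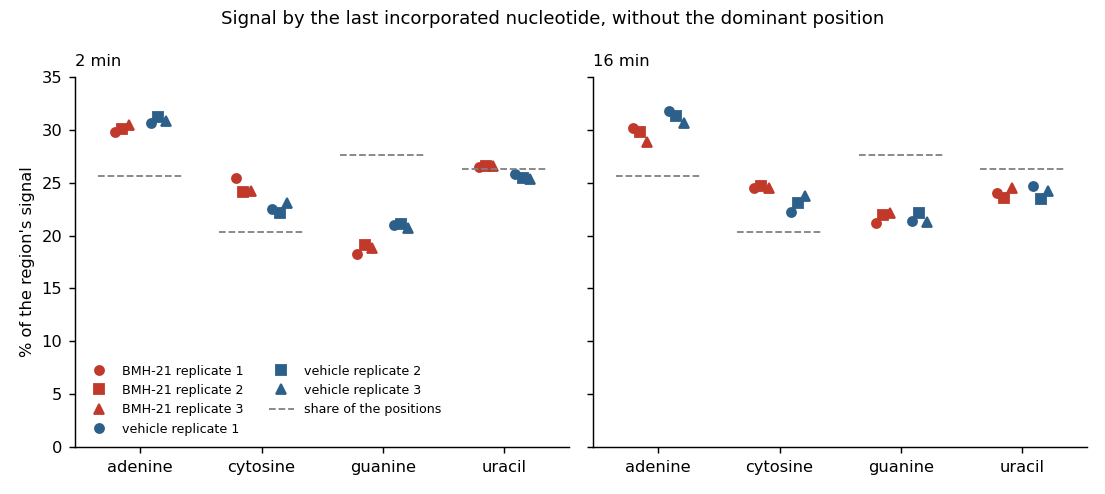
Share of the region's signal by the last incorporated nucleotide, without position 6399, in every library at 2 min and 16 min, BMH-21 in red left of vehicle in blue; dashed lines give the share of the positions with that base. At 2 min guanine lies at 18.3% to 19.1% after BMH-21, below 20.7% to 21.1% after vehicle, and cytosine lies higher after BMH-21 at both times.

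Called positions were also counted by base. Of all 1668 positions, 27.6% end in G, 25.7% in A, 26.4% in U and 20.3% in C. Of the 245 positions lower on the region scale at 2 min, 106 ended in G (43.3%), 68 in A (27.8%), 43 in U (17.55%) and 28 in C (11.4%). The next nucleotide was G at 90 of them (36.7%, against 27.6% of all 1668) and U at 75 (30.6%, against 26.4%). It was C at 50 (20.4%, against 20.4%) and A at 30 (12.2%, against 25.6%). Of the 55 positions higher on that scale, 19 ended in C (34.55%), 17 in U (30.9%), 10 in A (18.2%) and 9 in G (16.4%). At 16 min 10 of the 21 lower positions ended in G (47.6%), 10 in A (47.6%), 1 in C and 0 in U. These counts come from the same contrast as the shares of signal and are no separate evidence.

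Around the 42 highest positions of each library, G made up 25.6% ± 0.68 of the 30 nt downstream after BMH-21 and 25.5% ± 0.30 after vehicle at 2 min, against 27.7% over all positions of the region (SD, n = 3 each). At 16 min it made up 25.4% ± 0.44 after BMH-21 and 26.1% ± 0.20 after vehicle (SD, n = 3 each), with the groups apart. In the 10 nt that end at the last nucleotide, U made up 24.9% ± 0.96 after BMH-21 and 22.9% ± 0.41 after vehicle at 2 min (SD, n = 3 each), with the groups apart. Over all positions of the region U made up 26.4% of these 10 nt, more than in either treatment. At 16 min it made up 22.5% ± 0.73 after BMH-21 and 22.9% ± 1.67 after vehicle (SD, n = 3 each), with overlap. G made up 27.8% ± 1.59 of these 10 nt after BMH-21 and 29.6% ± 1.07 after vehicle at 2 min (SD, n = 3 each), with overlap, against 27.6% over all positions of the region. Around the 83 and 167 highest positions (5% and 10%) it made up 25.7% and 26.95% after BMH-21, against 28.8% and 28.7% after vehicle at 2 min, with the groups apart in both.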

How the data were processed

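NET-seq libraries of BMH-21-treated and vehicle-treated yeast at 2 min and 16 min, 3 per group, were taken from 2 tables that the authors deposited, 1 for each time. Per the labels, reads were demultiplexed with bcl2fastq 2.20.00, trimmed with cutadapt 1.12, aligned to R64 with STAR 2.7.1a and handled with SAMtools 1.6, bedtools 2.26.0 and R 4.0.2. The deposited unit is RPM, relative to all read ends of a library within the 35S gene. The deposited means, medians, ratios, differences, coefficients of variation and p-values were not used, and 0 per-library columns were left out.

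Dividing a library by its smallest value gave whole reads (within 0.05) at 99.9% to 100% of positions. Depth was 1054374 to 10480384 reads per library on the 35S gene. Merging of reads by molecular identifier is not given in the sources used here, so depth describes counting error only.

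Within each time, log2(RPM + 1) was tested at positions with a mean of 1 or more by limma 3.58.1 (R 4.3.3), and the recovered reads, as an alternative, by edgeR 4.0.16, with a threshold of 0.05 after Benjamini-Hochberg adjustment. Where edgeR is set beside the deposited scale, it used its own default normalization factors, so it differs from limma in scaling as well as in test. On the region scale edgeR used the region sum without position 6399 as library size. The fits were tested on simulated data. The times were not compared by a test, since their tables were scaled separately. Python 3.11.15, numpy 2.4.6, pandas 2.3.3 and matplotlib 3.10.9 served for descriptive values and plots. The region, the windows and the rule for named positions were chosen with earlier results of these data known. By that rule the text names, at each time, the 5 positions with the highest median in each treatment, the 5 most lowered and 5 most raised at an adjusted p under 0.05 (3 and 3 on the region scale), position 6399, and the positions followed by the first 4 constant bases of the linker. Other positions, runs and peaks were named after their values were seen. Alternatives covered the pseudocount (0.1 and 5), the filter (none, or a mean of 10 or more), scaling, edgeR, the replicate number as a block, and leaving out each library.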

Additional observations from a re-analysis of the deposited data

Results flagged for a closer look

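Position 6279, nucleotide 3028 of 25S, is listed because every BMH-21-treated library lay below every vehicle-treated one at 2 min (log2 fold change -0.51, limma adjusted p = 0.042) and above every one at 16 min (0.83, limma adjusted p = 0.0468). The difference between the times was not tested. Both calls are near the threshold: edgeR gave an adjusted p of 0.248 at 2 min and 0.0313 at 16 min, and the adjusted p-values over all alternatives ran from 0.0329 to 0.259 at 2 min and from 0.0313 to 0.169 at 16 min.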

How the results depend on the processing

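Deviations of same-numbered libraries correlated by -0.356, -0.0984 and -0.131 at 2 min, so these libraries did not deviate together at that time. With 3 libraries per group, these values cannot show whether same-numbered libraries were prepared together. At 16 min the deviations correlated by 0.0914, 0.079 and 0.296, weakly but all positive. There the block took the limma adjusted p of position 6383 from 0.588 to 0.0594 and that of 6399 from 0.211 to 0.108. Of the 8 calls among the named positions at 16 min on the deposited scale, 2 were lost with the block. With the replicate block, 16 positions fell and 4 rose at 2 min on the deposited scale, 92 fell and 3 rose on the region scale, and 0 windows rose, while 2 positions rose at 16 min on the region scale. At 2 min, edgeR called 46 lower and 267 higher with its own normalization factors and 106 higher on the region scale. The median ratio called 21 lower and 235 higher. The region scale called 1 window higher at 2 min and the 6 wider windows 4. At 16 min the median ratio called 10 lower and 13 higher, and edgeR with its own normalization factors called 24 higher. The 35S sum without position 6399 called 7 higher. On the deposited scale at that time, a pseudocount of 5 called 7 higher, either filter 5 higher, and a pseudocount of 0.1 none (0). On the region scale at 16 min, edgeR called 33 lower and 4 higher, a pseudocount of 5 called 4 higher, and a pseudocount of 0.1 and the region sum with position 6399 called 0 higher. Without 1 library, calls at 2 min ran from 0 to 152 lower and 0 to 151 higher on the deposited scale, from 51 to 372 lower and 2 to 75 higher on the region scale, and from 0 to 7 higher windows. At 16 min they ran from 5 to 22 lower and 0 to 2 higher on the deposited scale, and from 8 to 26 lower and 0 to 1 higher on the region scale. The cause was not tested.

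With position 6399 left out, the log2 difference in the region's share at 16 min was 0.0798. With it kept, the difference at the last nucleotide was 0.62 points for U at 2 min, and -2.99 for A, 0.13 for C, -0.98 for G and 3.83 for U at 16 min. For G downstream of the highest positions at 16 min, the top 1%, 5% and 10% gave 0.0654, 0.40 and 0.49 points, against -0.66. For U upstream, the top 10% gave 0.94 points at 2 min, and the top 1%, 5% and 10% gave -2.35, 0.92 (groups apart) and 1.198 points at 16 min, against -0.32. For G upstream at 2 min, the top 5% and 10% gave -3.05 and -1.78 points with the groups apart, against -1.83 with overlap. No called position or window named here changed direction in any alternative. Among single positions and windows, 207 values lost the call under an alternative, 20 gained it and 1499 kept their side of the threshold. The 1499 include values that were not called in the main fit and stayed so, and they are not a count of calls that held. Positions under about 10 RPM rest on the fewest reads.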
